A study of Mus musculus with 8 samples.

Results

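The comparison described here is that of BafA-treated qNSCs with control qNSCs after 4 h, the earlier of 2 times. Its members are probes that have a signal on each of the 4 arrays of 4 h, which are 20875 of the 23473 probes for mouse genes. The study asked how quiescent neural stem cells respond when their lysosomes are inhibited. The cells were an NSC line made from ventral telencephalon of embryonic ICR mice, kept as a culture over several passages, so that they stand for 1 line in a dish and not for stem cells in a brain. All groups were kept for 3 days in quiescence medium with BMP and then received fresh quiescence medium. That medium contained 20 nM BafA for the 2 BafA arrays of 4 h and no BafA for the 2 control arrays of 4 h. The fresh medium is shared by both groups, so that the comparison shows BafA on top of a medium change. The other 4 arrays hold the same 2 groups after 24 h. Whether the 2 arrays of a group were separate cultures is not stated, so the spread behind each p-value may be technical.

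Bafilomycin A (BafA) blocks the vacuolar-type H(+)-ATPase, the proton pump that keeps lysosomes and late endosomes acidic. Lysosomal hydrolases need the acid to work, and iron, cholesterol and amino acids leave the lysosome less readily without it. Lysosomes also report nutrient supply to the kinase complex mTORC1 through the Rag GTPases, and the transcription factors TFEB and TFE3 raise genes of lysosomes and autophagy when that signal fails. Neural stem cells that rest in quiescence are known for abundant lysosomes, and return to division when growth factor signals are strong enough.

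Total RNA was labelled with Cy5 and hybridised to single-colour oligonucleotide arrays, 1 sample to an array. The deposited signal of a probe is its spot brightness above the blank spots, scaled so that the median of each array is 25, and a probe at or below the blank spots has no value. Each of the 8 arrays has a value for 21652 to 22077 probes. The median difference between the 2 arrays of a group was 0.126 on the log2 scale for BafA at 4 h and 0.172 for control at 4 h. Of the 8 arrays, 6 share 1 scanner gain, and control array 1 of either time was read at another. For this reason counts were repeated with gain as a block and within the 6 arrays alike. Precision is limited by having 2 arrays a group. Of 19 markers of neural stem cells and astrocytes, 17 stood at 25 or more on all 4 arrays. Vim, an intermediate filament gene of these cells, had 22432.0 and 20504.1 with BafA, against 24340.5 and 25245.9 in control. The summed level of these 19 markers was 76471 to 80388 with BafA and 89338 to 90070 in control. None of them passed limma's test described below (2 were higher and 2 were lower at an unadjusted p below 0.05), and 4 of the 19 had a log2 fold change above 0. Pecam1 and Cdh5 of endothelial cells and C1qa and Cx3cr1 of microglia stayed at or below 2.8 on all 4 arrays. Not all markers of other cells were that dim. Of 10 measured markers of microglia and macrophages, 2 stood at 25 or more on all 4 arrays. So did 1 of 11 of endothelial, mural and fibroblast cells, and 4 of 11 of neurons and neuroblasts. Sox2, a defining marker of these cells, has no named probe here and was not analysed here.

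Few genes passed the test for a change with BafA at 4 h, and among brighter genes that passed the rises outnumbered the falls. With 2 arrays a group, a small count of calls does not mean that few genes changed. Each probe was tested with limma, in which the 8 arrays share 1 estimate of the spread and p-values are adjusted over all 20875 probes by the Benjamini-Hochberg method. A probe was called at an adjusted p below 0.05. Of all probes, 223 were higher (1.07%) and 166 were lower (0.795%). Genes are counted once, by their brightest probe, and among 14927 with a name 181 were higher (1.21%) and 104 were lower (0.697%), 1.91% together. Genes of sterol synthesis and immediate-early genes supplied 27 of the rises and 1 of the falls, and are left out of what follows. That leaves 14863 genes, with 154 higher (1.04%) and 103 lower (0.693%), 1.73% together. Of 5740 probes without a gene name, 39 were higher (0.679%) and 61 were lower (1.06%), 1.74% together. Before adjustment, 13.4% of all probes had a p below 0.05, and of the 14863 genes 6.98% were higher and 6.41% lower at that level.

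The 2 directions differ in the level of their genes. Of the genes whose higher group mean was 100 to 1000, 81 of 4250 were higher and 20 were lower. Between 25 and 100 the counts were equal, at 45 each of 3597 genes. Below 25, the median of an array, 18 of 6301 genes were higher and 36 were lower. The shares called lower were 0.571% below 25, 1.25% from 25 to 100, 0.471% from 100 to 1000 and 0.28% above. Those called higher were 0.286%, 1.25%, 1.91% and 1.4% in that order. The genes named below all have a group mean of at least 25 unless a value shows otherwise. Leading rises and falls were chosen by that minimum and by both BafA arrays lying on 1 side of both control arrays. By the 2-fold rule, with no test, 78 of the 14927 genes with a name were higher (0.523%) and 64 were lower (0.429%), and among genes with a group mean of 25 or more 58 were higher (0.673%) and 13 were lower (0.151%).

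**Figure D1:**
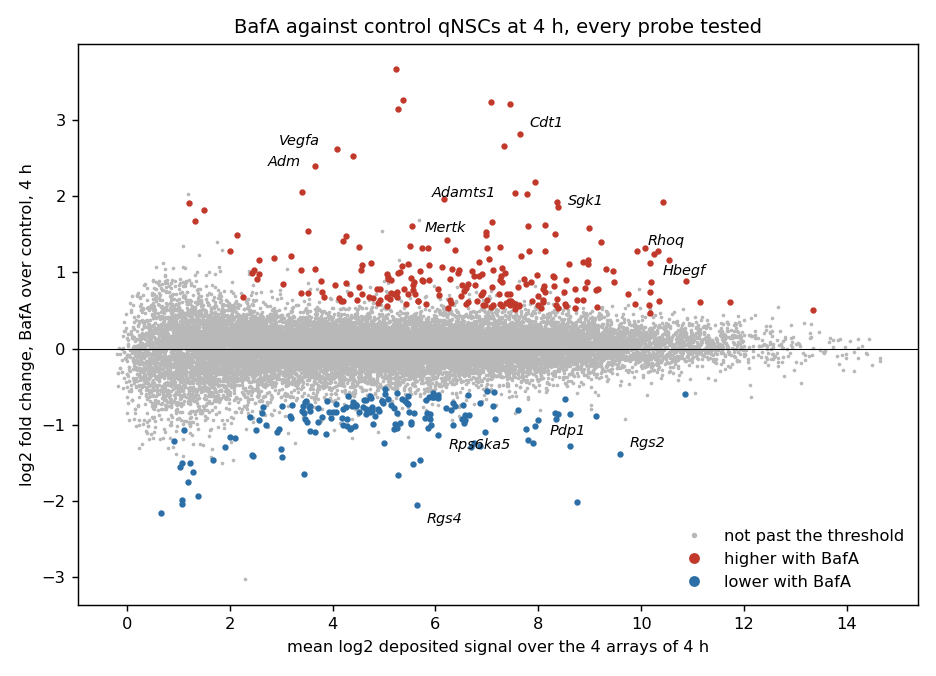
Each point is 1 of the 20875 probes. The horizontal axis gives the mean log2 deposited signal over the 4 arrays of 4 h, and the vertical axis the log2 fold change of BafA over control. The 223 probes called higher are red and the 166 called lower are blue, and Cdt1 at 2.81 and Rgs4 at -2.05 are the genes with the largest changes among those described in the text.

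Cdt1 had the largest rise of all named genes outside the 2 lists left out. It loads the replicative helicase onto origins before S phase. Its signal was 472.1 and 603.8 with BafA, against 79.2 and 72.8 in control, which is 7.08-fold higher (log2 fold change 2.81, SE 0.16, adjusted p = 3.7e-06 from limma). Both BafA arrays lay far above both control arrays, and the adjusted p stayed at or below 0.00075 when any 1 of the 4 arrays was left out. For 32 measured genes of G1/S and DNA replication, the median log2 fold change was 0.049, beside 0.027 over all named genes. Of the 32, 2 passed as higher (6.25%, beside 1.21% of all named genes) and 0 as lower (beside 0.697%). The second was Ccnd2, which encodes cyclin D2, with 1546.1 and 1635.0 with BafA, against 1129.4 and 666.6 in control (log2 fold change 0.87, adjusted p = 0.049 from limma). Its 2 control arrays lie far apart, and the call was lost without the first BafA array (0.194), the second BafA array (0.279) or the second control array (0.215), and with gain as a block (0.0665). Cdc6, which acts with Cdt1 at origins, had 5.0 and 6.9 with BafA, against 7.6 and 7.1 in control, and did not pass.

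The promoter of Cdt1 is shown because the gene leads the rises. RefSeq promoters of GRCm38.p6, each from 250 bases before to 50 after a transcription start, were found for 11964 of the 14927 named genes. They were searched on both strands for CACGTG (the E-box of clock, MYC and MiT/TFE factors), ACGTG (the core of the hypoxia response element, which every CACGTG also holds), TGATGNAA (the composite element of CHOP and ATF4), TGACGTCA (the cAMP response element), TGANTCA (AP-1, which shares no full match with the element before it) and GTAAACA (FOXO and other forkhead factors). Capitals mark a match in every promoter printed here. None of the 6 motifs is in the Cdt1 window, chr8:122567765-122568064 on the plus strand.
Cdt1: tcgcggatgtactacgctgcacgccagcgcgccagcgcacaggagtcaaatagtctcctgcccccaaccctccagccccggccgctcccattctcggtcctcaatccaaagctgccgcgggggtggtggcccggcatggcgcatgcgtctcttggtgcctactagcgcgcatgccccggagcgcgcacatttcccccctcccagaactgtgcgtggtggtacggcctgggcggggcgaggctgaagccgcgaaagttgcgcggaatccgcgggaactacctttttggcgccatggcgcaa

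The next 3 genes by size of rise, Vegfa, Adm and Adamts1, all encode secreted proteins, as do Clcf1 and Hbegf further down. Vegfa, the main growth factor of blood vessels, had 40.9 and 43.3 with BafA, against 6.4 and 7.3 in control, a 6.15-fold difference (log2 fold change 2.62, SE 0.15, adjusted p = 3.8e-06 from limma). Adm, which encodes the vasodilator peptide adrenomedullin, had 27.6 and 30.2 with BafA, against 6.2 and 4.9 in control (5.21-fold, log2 fold change 2.39, SE 0.24, adjusted p = 0.00036). Both genes were dim in control cells and stood above the median of the array with BafA. The minimum level for leading genes required such a BafA mean of any rise that is dim in control, so it is no separate result. From scanner signals with an offset of 50, which shrinks changes of dim probes, the log2 fold changes were 1.03 for Vegfa and 0.78 for Adm. Adamts1, a secreted protease that cleaves proteoglycans, had 386.8 and 371.3 with BafA, against 93.3 and 91.4 in control (4.10-fold, log2 fold change 2.04, adjusted p = 1.5e-05). Clcf1, a cytokine that acts through the CNTF receptor, had 125.4 and 119.9 with BafA, against 46.6 and 44.9 in control (log2 fold change 1.42, adjusted p = 0.0015). Hbegf, a ligand of EGFR, had 1722.9 and 1705.5 with BafA, against 908.5 and 675.8 in control (log2 fold change 1.13, adjusted p = 0.0021). These 5 genes passed in limma when any 1 of the 4 arrays was left out, with adjusted p-values up to 0.048. Lif, a cytokine of the same receptor family as Clcf1, had only 18.5 and 17.6 with BafA, against 7.6 and 10.1 in control (log2 fold change 1.04, adjusted p = 0.0075), and lost its call without the first BafA array (0.0891), the second BafA array (0.0704) or the first control array (0.0852). With the offset its log2 fold change was 0.33. Of 32 measured growth factors and cytokines, 2 were higher (6.25%, beside 1.21% of all named genes) and 0 were lower, with a median of -0.01. Fgf2 had 10.6 and 7.8 with BafA, against 10.8 and 7.7 in control.

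Mertk, P2ry2, Kdr and Fgfr1 are receptor genes among the rises. Mertk, a receptor tyrosine kinase for ligands that bridge to phosphatidylserine, had 209.9 and 218.9 with BafA, against 74.4 and 73.6 in control (2.90-fold, log2 fold change 1.53, SE 0.15, adjusted p = 0.00036 from limma). The arrays of each group nearly coincide, and no single array carried the call. P2ry2, a receptor for extracellular ATP and UTP, had 79.8 and 92.9 with BafA, against 43.2 and 37.3 in control (log2 fold change 1.10, adjusted p = 0.0015). Kdr, the main receptor of VEGF, had 31.9 and 49.1 with BafA, against 19.9 and 16.6 in control (log2 fold change 1.12, adjusted p = 0.012). Its call was lost without the second BafA array (0.114), the first control array (0.0781) or the second control array (0.15). Fgfr1, a receptor of FGF2, had 315.0 and 322.0 with BafA, against 235.4 and 207.8 in control (log2 fold change 0.53, adjusted p = 0.041), and passed in none of the 4 fits without 1 array (adjusted p from 0.112 to 0.295) nor with gain as a block (0.0704). Of 33 measured receptor tyrosine kinases, 3 were higher (9.09%, beside 1.21% of all named genes) and 0 were lower, with a median of 0.034. Egfr had 234.0 and 217.1 with BafA, against 229.1 and 195.3 in control, where the groups overlap, and Pdgfra, a dim probe, had 4.7 and 5.7 with BafA, against 9.7 and 9.1 in control (adjusted p = 0.0576).

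Sgk1, Rhoq, Plekho1, Trib1 and Tifa, which encode kinases, a small GTPase and adaptors of signaling, were also among the leading rises. Sgk1, a kinase downstream of PI3K that hormones and stress induce, had 595.8 and 693.5 with BafA, against 188.1 and 151.5 in control (3.80-fold, log2 fold change 1.93, SE 0.19, adjusted p = 0.00035 from limma). Rhoq, the GTPase TC10 that takes part in insulin-stimulated vesicle traffic, had 1537.4 and 1488.9 with BafA, against 668.3 and 575.6 in control (log2 fold change 1.29, adjusted p = 0.0013, or 0.0509 when the second control array is dropped). Plekho1, a PH domain protein that binds casein kinase, had 347.5 and 352.0 with BafA, against 140.6 and 147.9 in control (log2 fold change 1.28, adjusted p = 0.00018). Trib1, a pseudokinase that directs C/EBP proteins to degradation, had 65.9 and 79.4 with BafA, against 34.2 and 23.8 in control (log2 fold change 1.34, adjusted p = 0.0026). Tifa, an adaptor of TRAF proteins on the way to NF-kappaB, had 195.4 and 202.8 with BafA, against 85.8 and 90.7 in control (log2 fold change 1.17, adjusted p = 0.0012). The rule for leading genes required groups that do not overlap. In each of these genes the groups are separate, and apart from Rhoq each passed without any 1 array.

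Spry4 and Spry1 were the called genes among ERK feedback regulators and ETS targets, both at levels near the blank spots. Spry4 had 7.1 and 7.7 with BafA, against 2.9 and 2.4 in control (log2 fold change 1.49, adjusted p = 0.0013), and Spry1 had 7.3 and 8.6 with BafA, against 3.4 and 4.4 in control (log2 fold change 1.03, adjusted p = 0.0075 from limma). Both encode Sprouty proteins, which dampen signaling by receptor tyrosine kinases. Spry1 lost its call without the second BafA array (0.104) or the first control array (0.0854). From scanner signals with the offset, the log2 fold changes were 0.22 for Spry4 and 0.18 for Spry1, which no longer passed (adjusted p = 0.21). Of 24 measured genes of this list, 2 were higher (8.33%, beside 1.21% of all named genes) and 0 were lower. In the list 13 stood at 25 or more on all 4 arrays, and the median was 0.262, against 0.077 with that offset. Etv5, a transcription factor induced by ERK, had 189.2 and 183.3 with BafA, against 141.6 and 170.4 in control, and did not pass.

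**Figure D2:**
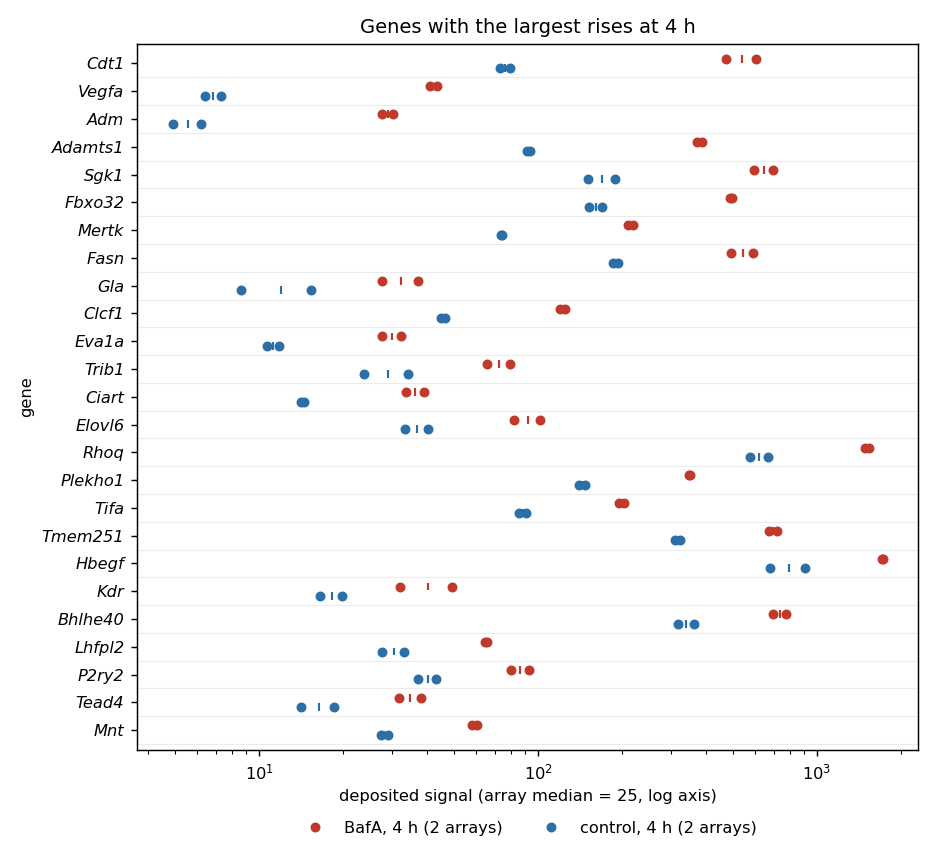
Deposited signal on each of the 2 BafA arrays (red, upper points of a row) and 2 control arrays (blue, lower points) of 4 h for the 25 leading rises, on a log axis, with a tick at the mean of a group. The BafA points lie to the right of the control points in every row, as the rule for leading genes required. The difference runs from 7.08-fold for Cdt1 down to 2.11-fold for Mnt.

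Among genes of the lysosome, the organelle on which BafA acts, few passed by 4 h. Gla, the lysosomal alpha-galactosidase, had 27.5 and 37.3 with BafA, against 8.6 and 15.4 in control (2.70-fold, log2 fold change 1.48, SE 0.27, adjusted p = 0.017 from limma), and lost its call without the second BafA array (0.169) or the first control array (0.184). Tmem251, which is needed to tag lysosomal enzymes with mannose 6-phosphate, had 718.7 and 671.1 with BafA, against 311.0 and 323.2 in control (2.19-fold, log2 fold change 1.13, SE 0.12, adjusted p = 0.00072). Eva1a, a membrane protein of autophagy, had 27.6 and 32.4 with BafA, against 10.7 and 11.8 in control (log2 fold change 1.41, adjusted p = 0.0021). Tmem251 and Eva1a passed without any 1 array, with adjusted p-values up to 0.05 for Eva1a. With the offset the log2 fold changes were 0.61 for Gla and 0.58 for Eva1a, and both passed. Among 44 measured lysosomal enzymes and membrane proteins, Gla and the sialidase gene Neu1 were higher (4.55%, beside 1.21% of all named genes). In the list 0 were lower, with a median of 0.055. Lamp1, an abundant protein of the lysosomal membrane, had 8600.4 and 8828.6 with BafA, against 8218.3 and 8355.8 in control (log2 fold change 0.07, adjusted p = 0.797).

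Of 18 measured subunits of the V-ATPase itself, 1 was higher (5.56%, beside 1.21% of all named genes) and 0 were lower, with a median of 0.106. Atp6v1b2, which encodes a subunit of the catalytic ring, had 1452.9 and 1518.3 with BafA, against 913.4 and 868.2 in control (1.67-fold, log2 fold change 0.74, adjusted p = 0.0056 from limma). Its call was lost without the second BafA array (0.0765), the first control array (0.0558) or the second control array (0.0766). Of 31 measured genes of autophagy and the MiT/TFE factors, 2 were higher (6.45%, beside 1.21% of all named genes) and 0 were lower, with a median of 0.101. Both belong to the Rag arm of lysosomal nutrient sensing. Flcn, which encodes folliculin, the activator of RagC, had 729.4 and 719.9 with BafA, against 404.0 and 451.6 in control (1.69-fold, log2 fold change 0.76, adjusted p = 0.022). Rragc, which encodes RagC, had 640.1 and 722.0 with BafA, against 489.4 and 446.3 in control (1.46-fold, log2 fold change 0.54, adjusted p = 0.04). Neu1, Flcn and Rragc passed in none of the fits without 1 of the 4 arrays (adjusted p from 0.107 to 0.378), and Rragc had 0.13 from scanner signals with the offset. With gain as a block Neu1 (0.121) and Rragc (0.0883) did not pass. Tfeb had 43.0 and 41.9 with BafA, against 39.1 and 47.4 in control, where the groups overlap.

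The promoter of Gla is shown because it holds the motif bound by MiT/TFE factors and is that of the lysosomal gene with the largest rise. It lies at chrX:134600956-134601255 on the minus strand and holds CACGTG at 2 places, with a further ACGTG on the opposite strand. Among the other rises linked to lysosomes above, promoters of Eva1a and Rragc hold CACGTG at 1 place. Those of Neu1, Tmem251 and Flcn hold none.
Gla: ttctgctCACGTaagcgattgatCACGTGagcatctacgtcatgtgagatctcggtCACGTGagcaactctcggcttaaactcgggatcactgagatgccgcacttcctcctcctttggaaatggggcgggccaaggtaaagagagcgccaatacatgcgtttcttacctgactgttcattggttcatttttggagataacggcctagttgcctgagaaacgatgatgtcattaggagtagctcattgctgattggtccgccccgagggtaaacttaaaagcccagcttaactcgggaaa

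CACGTG was in 30 of 190 promoters of the genes called higher (15.8%), in 7 of 93 promoters of the genes called lower (7.53%) and in 1344 of 15084 promoters of all named genes tested (8.91%). For ACGTG the shares were 27.9%, 26.9% and 22.8%. TGACGTCA was in 2.63%, 2.15% and 2.58%, TGANTCA in 7.37%, 3.23% and 6.29%, GTAAACA in 4.74%, 1.08% and 2.74%, and TGATGNAA in 0.526%, 3.23% and 2.62%. These shares are a description, and a gene with several starts counts once for each of them. A match says only that the letters are there.

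Of 17 measured genes of the circadian clock, 4 were higher (23.5%, beside 1.21% of all named genes) and 0 were lower, with a median of 0.31. Ciart, a repressor of the clock, had 38.9 and 33.6 with BafA, against 14.1 and 14.5 in control (2.53-fold, log2 fold change 1.34, SE 0.14, adjusted p = 0.00051 from limma). Bhlhe40, another repressor, which binds E-boxes and also responds to low oxygen, had 775.5 and 697.1 with BafA, against 361.9 and 318.7 in control (log2 fold change 1.11, adjusted p = 0.0036, or 0.0751 when the second control array is dropped). Rora, a nuclear receptor that activates Arntl, had 131.7 and 112.6 with BafA, against 64.8 and 71.4 in control (log2 fold change 0.84, adjusted p = 0.011). Per1, a core repressor that many stimuli induce within hours, had 38.3 and 37.0 with BafA, against 24.3 and 24.1 in control (log2 fold change 0.64, adjusted p = 0.02). Ciart passed without any 1 array, and its log2 fold change was 0.61 with the offset. Per1 passed in none of the 4 fits without 1 array (adjusted p from 0.12 to 0.185), and Rora failed without the first BafA array (0.134), the first control array (0.142) or the second control array (0.0759). The list's median was 0.069 from scanner signals with the offset, where 5 genes were higher. Dbp, an output gene of the clock, had 104.6 and 94.7 with BafA, against 99.3 and 110.8 in control, and Arntl had 391.5 and 380.7 with BafA, against 250.9 and 211.9 in control without passing (adjusted p = 0.314).

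The promoter of Ciart, at chr3:95882179-95882478 on the minus strand, is shown because it holds CACGTG at 3 places. A promoter of Per1 holds it at 1 place, while another promoter of Per1 and that of Rora hold none.
Ciart: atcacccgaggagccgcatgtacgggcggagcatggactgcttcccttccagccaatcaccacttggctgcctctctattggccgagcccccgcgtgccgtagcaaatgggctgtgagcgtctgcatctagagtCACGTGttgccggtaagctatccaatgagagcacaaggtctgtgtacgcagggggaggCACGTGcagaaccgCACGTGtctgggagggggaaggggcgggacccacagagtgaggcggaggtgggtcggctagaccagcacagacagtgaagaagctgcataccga

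Other transcription factor genes among the rises were Mnt, Tead4 and Klf9. Mnt, a partner of MAX that opposes MYC at E-boxes, had 58.2 and 60.5 with BafA, against 28.9 and 27.3 in control (2.11-fold, log2 fold change 1.08, adjusted p = 0.0012 from limma), and passed without any 1 array. Tead4, which binds DNA for the coactivators of the Hippo pathway, had 31.7 and 38.0 with BafA, against 14.1 and 18.6 in control (log2 fold change 1.10, adjusted p = 0.0082), and lost its call without the second BafA array (0.111) or the first control array (0.121). Klf9, a target of the glucocorticoid receptor, had 52.7 and 57.0 with BafA, against 30.1 and 33.8 in control (log2 fold change 0.78, adjusted p = 0.0096, and from 0.0602 to 0.128 without 1 array). Of 8 measured glucocorticoid-responsive genes, Sgk1 and Klf9 were higher (25%, beside 1.21% of all named genes) and Pdk4 was lower (12.5%, beside 0.697%). Fkbp5, a sensitive target of that receptor, had 24.4 and 56.6 with BafA, against 52.6 and 50 in control. The 2 BafA arrays of Fkbp5 disagree, so that its value gives no direction. Olig2, a transcription factor of the oligodendrocyte lineage that neural stem cells in culture also express, had 342.2 and 289.9 with BafA, against 183.0 and 162.5 in control (log2 fold change 0.87, adjusted p = 0.0037, lost at 0.0619 without the first BafA array and at 0.0683 without the second control array). It was the 1 called gene among 10 measured markers of that lineage (10%, beside 1.21% of all named genes). Their summed level was 2077 to 2128 with BafA and 1591 to 1937 in control. The part of Olig2 in the result was not tested.

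Fasn and Elovl6 were the rises among genes of fatty acid synthesis. Fasn, the fatty acid synthase, had 493.4 and 591.9 with BafA, against 193.6 and 186.3 in control (2.86-fold, log2 fold change 1.51, SE 0.12, adjusted p = 6.5e-05 from limma), and passed without any 1 array. Elovl6, which elongates its product, had 101.8 and 82.2 with BafA, against 40.3 and 33.4 in control (log2 fold change 1.32, adjusted p = 0.013), and lost its call without the first BafA array (0.124), the first control array (0.0952) or the second control array (0.159). Gpam, which starts the synthesis of glycerolipids from fatty acids, moved the other way, with 32.1 and 36.9 with BafA, against 50.4 and 64.3 in control (log2 fold change -0.73, adjusted p = 0.047, and from 0.0947 to 0.331 without 1 array). Of 20 measured genes of the list, 2 were higher (10%, beside 1.21% of all named genes) and 1 was lower (5%, beside 0.697%). The median was 0.205, with 17 of 20 above 0. Scd1, a desaturase, had 763.0 and 912.0 with BafA, against 647.5 and 493.2 in control, and did not pass.

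Of 31 measured genes of the hypoxia response and glycolysis, 3 were higher (9.68%, beside 1.21% of all named genes). In the list 1 was lower (3.23%, beside 0.697%) and the median was 0.157. Besides Vegfa and Adm, Pfkfb3, which makes the main activator of glycolysis, had 289.0 and 293.4 with BafA, against 191.8 and 137.7 in control (1.77-fold, log2 fold change 0.84, adjusted p = 0.019 from limma). The lower gene was Egln3, a prolyl hydroxylase that marks HIF for destruction, with 30.9 and 26.5 with BafA, against 57.3 and 45.7 in control (log2 fold change -0.84, adjusted p = 0.02). Pfkfb3 lost its call without the first BafA array (0.122), the second BafA array (0.148) or the second control array (0.157), and Egln3 without any 1 array (adjusted p from 0.0622 to 0.219) and with gain as a block (0.0648). Ldha and Pgk1, enzymes of glycolysis, had log2 fold changes of -0.01 and 0.17 and did not pass. Of 16 measured genes of iron handling, Tfrc and Hmox1 were higher (12.5%, beside 1.21% of all named genes) and 0 were lower. Tfrc, the transferrin receptor gene, had 154.0 and 152.0 with BafA, against 93.6 and 93.1 in control (1.64-fold, log2 fold change 0.71, adjusted p = 0.0074), and from 0.0764 to 0.0813 without 1 array. Hmox1, heme oxygenase 1, had 2437.1 and 2675.3 with BafA, against 1436.7 and 1328.3 in control (1.85-fold, log2 fold change 0.89, adjusted p = 0.015), from 0.0668 to 0.154 without 1 array and 0.0614 with gain as a block. Fth1, the heavy chain of ferritin, had 21932.3 and 19812.2 with BafA, against 23481.9 and 20424.5 in control, where the groups overlap.

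Of 28 measured genes of the ATF4 and amino acid response, 2 were higher (7.14%, beside 1.21% of all named genes) and 0 were lower. The median was 0.199, with 24 of 28 above 0. At an unadjusted p below 0.05, 11 of the 28 were higher and 0 were lower, beside 6.98% higher and 6.41% lower over all genes. Slc38a2, a transporter of neutral amino acids, had 69.7 and 78.6 with BafA, against 34.2 and 39.4 in control (2.01-fold, log2 fold change 1.01, adjusted p = 0.0031 from limma, lost at 0.0518 without the second BafA array and at 0.0596 without the first control array). Ddit3, which encodes CHOP, had 172.4 and 166.5 with BafA, against 107.5 and 120.6 in control (1.49-fold, log2 fold change 0.57, adjusted p = 0.029, from 0.0925 to 0.233 without 1 array, 0.072 with gain as a block and 0.066 from scanner signals with the offset). Asns, a standard target of ATF4, had 314.2 and 299.4 with BafA, against 359.5 and 292.5 in control. No gene passed among 20 of the unfolded protein response, 14 of the NRF2 response, 9 heat shock proteins, 7 of metallothioneins and zinc transport, 12 actin and SRF targets and 17 of ribosome biogenesis, where the counts at an unadjusted p below 0.05 were 2 higher and 2 lower, 3 and 0, 2 and 0, 0 and 0, 0 and 1, and 3 and 0 in that order, beside 6.98% higher and 6.41% lower over all genes. Hspa5, the chaperone BiP, had 3817.9 and 3725.2 with BafA, against 5215.9 and 5265.6 in control (log2 fold change -0.47, adjusted p = 0.0639).

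The leading fall was that of Rgs4, a GTPase-activating protein that ends signaling by Gi and Gq. Its signal was 22.0 and 27.4 with BafA, against 115.3 and 90.2 in control, which is 4.16-fold lower (log2 fold change -2.05, SE 0.23, adjusted p = 0.00078 from limma), and the adjusted p was at most 0.032 without any 1 array. With the offset the log2 fold change was -1.32. Rgs2, which acts on Gq, came second, with 480.1 and 472.7 with BafA, against 1363.3 and 1140.7 in control (2.63-fold lower, log2 fold change -1.39, SE 0.21, adjusted p = 0.0059). Rgs2 lost its call without the second BafA array (0.0527), the first control array (0.119) or the second control array (0.0623). Of 15 measured RGS genes, 0 were higher and 2 were lower (13.3%, beside 0.697% of all named genes), and the median was 0.059. Rgs16 had 331.8 and 314.3 with BafA, against 226.4 and 148.6 in control (adjusted p = 0.126 from limma). The promoter of Rgs4, at chr1:169747593-169747892 on the minus strand, is shown because the gene leads the falls. It holds none of the 6 motifs.
Rgs4: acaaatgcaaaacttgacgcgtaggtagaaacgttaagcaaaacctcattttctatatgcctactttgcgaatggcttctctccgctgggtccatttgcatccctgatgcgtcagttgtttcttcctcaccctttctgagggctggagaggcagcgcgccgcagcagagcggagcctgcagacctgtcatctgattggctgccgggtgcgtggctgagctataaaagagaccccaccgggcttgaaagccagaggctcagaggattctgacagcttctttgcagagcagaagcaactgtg

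Rps6ka5, Pdp1, Klhl25, Ddit4l and Pdk4 were further falls. Rps6ka5, the kinase MSK1 that phosphorylates CREB and histone H3 downstream of MAP kinases, had 40.4 and 50 with BafA, against 97.9 and 98.5 in control (2.17-fold lower, log2 fold change -1.13, SE 0.13, adjusted p = 0.00094 from limma). Pdp1, the phosphatase that activates pyruvate dehydrogenase, had 188.0 and 181.8 with BafA, against 361.5 and 348.1 in control (1.92-fold lower, log2 fold change -0.94, SE 0.11, adjusted p = 0.0012). Pdk4, a kinase that inactivates the same enzyme, had 40.1 and 41.0 with BafA, against 84.7 and 68.6 in control (log2 fold change -0.91, adjusted p = 0.015). Ddit4l, a relative of the mTORC1 inhibitor REDD1, had 44.2 and 37.1 with BafA, against 88.1 and 78.4 in control (log2 fold change -1.04, adjusted p = 0.0063). Klhl25, an adaptor that brings substrates to the ubiquitin ligase CUL3, had 83.0 and 86.5 with BafA, against 173.1 and 190.6 in control (log2 fold change -1.10, adjusted p = 0.001). Rps6ka5, Pdp1 and Klhl25 passed without any 1 array. Pdk4 passed in none of the 4 fits without 1 array (adjusted p from 0.0608 to 0.183), and Ddit4l failed without the second BafA array (0.0883), the first control array (0.107) or the second control array (0.0622).

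FOXO targets moved in both directions. Fbxo32, which encodes the ubiquitin ligase atrogin-1 of muscle wasting, had 494.8 and 489.5 with BafA, against 151.8 and 170.0 in control (3.06-fold higher, log2 fold change 1.62, SE 0.21, adjusted p = 0.0021 from limma, and 0.0591 without the first control array). Of 17 measured FOXO-regulated genes, Fbxo32 was higher (5.88%, beside 1.21% of all named genes) and Pdk4 was lower (5.88%, beside 0.697%). The median was -0.137. Txnip, an inhibitor of glucose uptake, had 596.1 and 603.8 with BafA, against 1208.7 and 1067.6 in control, and did not pass (log2 fold change -0.92, adjusted p = 0.0939). Sesn1, a target of p53 and FOXO that restrains mTORC1, had 109.7 and 106.0 with BafA, against 189.5 and 173.2 in control (1.68-fold lower, log2 fold change -0.75, adjusted p = 0.034, from 0.153 to 0.272 without 1 array and 0.083 with gain as a block). It was the 1 called gene among 17 measured p53 targets and CDK inhibitors (5.88%, beside 0.697% lower over all named genes). Cdkn1b, which encodes the inhibitor p27, had 122.6 and 126.0 with BafA, against 155.5 and 157.3 in control, and did not pass (adjusted p = 0.217).

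Another 7 falls were called but lost in some of the fits without 1 array. Foxj1, the master regulator of motile cilia, had 91.9 and 116.9 with BafA, against 224.2 and 171.6 in control (1.90-fold lower, log2 fold change -0.92, adjusted p = 0.032 from limma), and Tmem67, a protein of the transition zone at the base of cilia, had 28.5 and 24.9 with BafA, against 57.2 and 52.2 in control (2.05-fold lower, log2 fold change -1.04, adjusted p = 0.0045). Zfp36l1, which speeds the decay of mRNAs with AU-rich elements, had 389.9 and 427.7 with BafA, against 836.3 and 682.5 in control (1.86-fold lower, log2 fold change -0.89, adjusted p = 0.008). Nhp2, a core protein of the particles that guide pseudouridylation, had 31.3 and 25.6 with BafA, against 56.0 and 55.8 in control (log2 fold change -0.98, adjusted p = 0.0075). Each of these genes was lower on both BafA arrays than on both control arrays, which the rule for leading falls required. Lrrc4, a synaptic adhesion molecule, had 80.6 and 68.7 with BafA, against 138.8 and 134.1 in control (log2 fold change -0.87, adjusted p = 0.0057). Ggta1, which makes the alpha-gal epitope of glycans, had 60.9 and 54.2 with BafA, against 107.1 and 122.7 in control (log2 fold change -1.0, adjusted p = 0.033). Pmp2, a fatty acid-binding protein of myelin, had 24.1 and 18.2 with BafA, against 54.1 and 45.0 in control (log2 fold change -1.24, adjusted p = 0.023). Foxj1 did not pass with gain as a block (0.0849) or within the 6 arrays of equal gain (0.205). None of these 7 calls held when each of the 4 arrays was left out in turn. The highest adjusted p for each came without the first control array, from 0.0815 for Tmem67 to 0.309 for Foxj1, except for Nhp2 (0.108), Lrrc4 (0.0914) and Ggta1 (0.247) without the second BafA array.

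The other leading falls were those of 2810459M11Rik, BC002059, E130311K13Rik, Mterf2, Tcim, Tram1l1, Sncaip, Shisa2 and the zinc finger genes Zfp40, Zfp935 and Zfp560, with log2 fold changes from -1.27 for BC002059 to -0.87 for Zfp560. The first, 2810459M11Rik, had 159.2 and 150.2 with BafA, against 359.4 and 367.1 in control (2.35-fold lower, adjusted p = 0.0024 from limma, and 0.0576 without the second control array). Each of the other 10 lost its call without at least 2 of the 4 arrays, with adjusted p-values up to 0.342 for Zfp40. Sncaip (0.115) and Zfp40 (0.0799) did not pass with gain as a block, and the log2 fold change of Mterf2, -1.05, was -0.45 with the offset. Lists of signals that act on quiescence held 1 further fall each, or none. Irf1, a transcription factor of the interferon response, had 68.5 and 74.7 with BafA, against 137.2 and 103.4 in control (log2 fold change -0.74, adjusted p = 0.04, from 0.0628 to 0.327 without 1 array and 0.103 with gain as a block), as the 1 called gene of 16 measured. That is 6.25% of the interferon list, beside 0.697% lower over all named genes. Of 25 measured Notch pathway genes, Jag1, a Notch ligand, was higher (10 and 8.0 with BafA, against 5.3 and 3.0 in control, adjusted p = 0.033 from limma). Lfng, which modifies Notch receptors, was lower (19.0 and 24.3 with BafA, against 34.4 and 33.0 in control, adjusted p = 0.035). Each is 4% of the list, beside 1.21% higher and 0.697% lower over all named genes. Jag1 lost its call without the first BafA array (0.251), the second BafA array (0.0998) or the second control array (0.192), and Lfng without any 1 array (from 0.0518 to 0.343). Neither passed with gain as a block (0.0574 for Jag1 and 0.0833 for Lfng), and Jag1 did not pass with the offset (log2 fold change 0.21, adjusted p = 0.121). No gene passed among 18 BMP targets and Id genes (1 higher and 3 lower at an unadjusted p below 0.05, beside 6.98% and 6.41% over all genes), whose median was -0.185, with 5 of 18 above 0. Id3, a direct BMP target, had 7219.3 and 7823.3 with BafA, against 9996.7 and 10471.6 in control (log2 fold change -0.45, adjusted p = 0.129), while Id1 had 6039.1 and 6204.8 with BafA, against 4714.7 and 5228.3 in control (log2 fold change 0.30, adjusted p = 0.683).

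**Figure D3:**
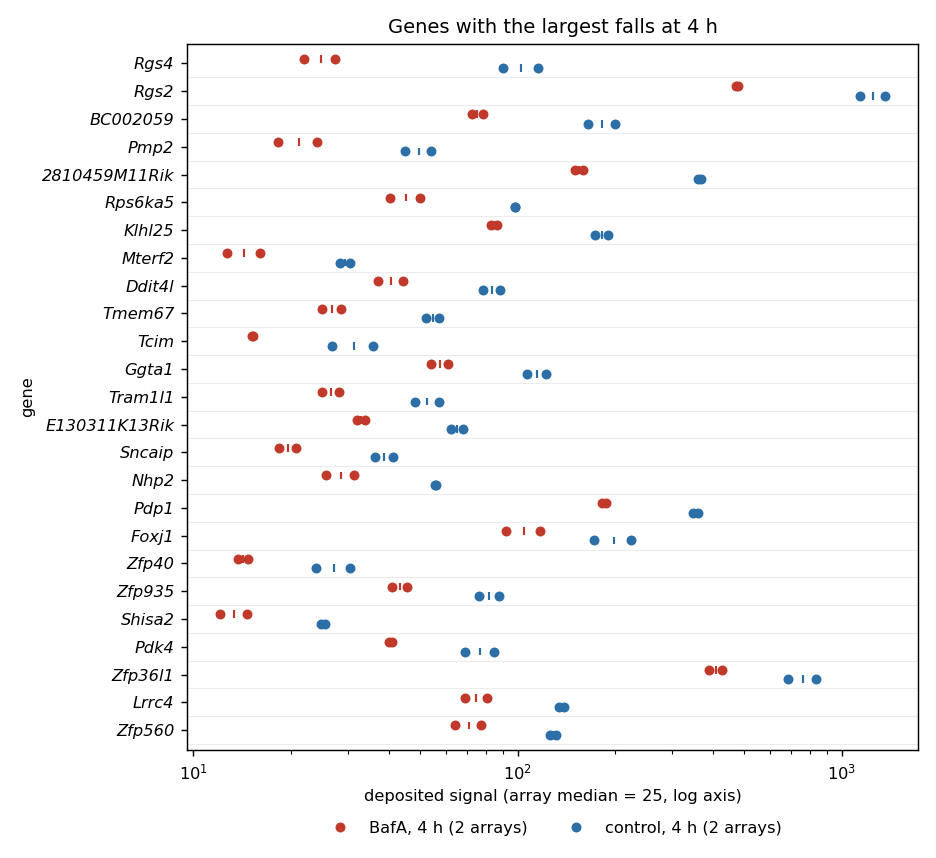
Deposited signal on each of the 2 BafA arrays (red, upper points of a row) and 2 control arrays (blue, lower points) of 4 h for the 25 leading falls, on a log axis, with a tick at the mean of a group. The BafA points lie to the left of the control points in every row, as the rule for leading genes required. The difference is 4.16-fold for Rgs4 at the top and 1.83-fold for Zfp560 at the bottom.

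Of 24 measured genes of G2/M and mitosis, Tpx2, which assembles spindles, was higher (60.9 and 63.9 with BafA, against 39.1 and 36.6 in control, log2 fold change 0.72, adjusted p = 0.0083 from limma, and from 0.0591 to 0.117 without 1 array), 0 were lower and the median was 0.002. The 1 rise is 4.17% of that list, beside 1.21% of all named genes. Mki67, which encodes Ki-67, was dim, with 12.1 and 9.3 with BafA, against 11.3 and 12.4 in control (adjusted p = 0.732 from limma), so that a change in it could be missed. The 26 lists outside the sterol and immediate-early genes hold 539 measured genes, of which 32 were higher (5.94%, beside 1.04% of the 14863 genes) and 8 were lower (1.48%, beside 0.693%). At an unadjusted p below 0.05, 102 were higher (18.9%, beside 6.98%) and 31 were lower (5.75%, beside 6.41%). The lists were drawn up with earlier results of these data known. Their medians ran from -0.185 for BMP targets and Id genes to 0.31 for clock genes.

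**Figure D4:**
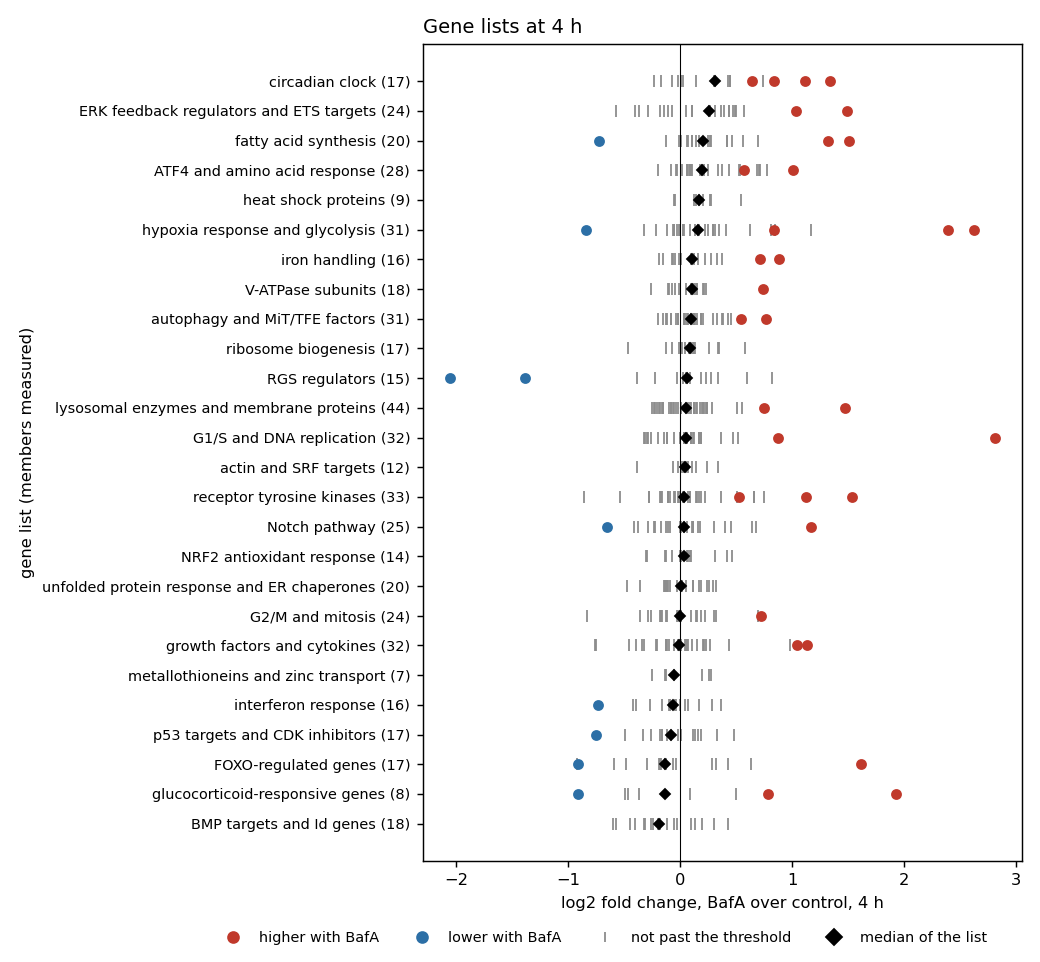
Log2 fold change of BafA over control at 4 h for each measured member of 26 gene lists, ordered by the list's median, with the number measured in brackets. Red points were called higher and blue points lower, grey ticks did not pass, and black diamonds give the median, which lies between -0.185 and 0.31 in every list.

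The calls of the leading genes differed in how far they rest on single arrays and on the processing. Without the trend in eBayes, 20 of the 25 leading rises and 8 of the 25 leading falls passed. With the local background of each spot subtracted first, 0 leading rises and 0 leading falls passed. Of the 25 leading rises, all 25 also passed from scanner signals with the offset, 25 with gain as a block, 21 in the 6 arrays of equal gain and 17 in all 4 fits without 1 array of 4 h. Of the 25 leading falls, the counts were 25, 22, 15 and 4. The 4 falls that held in every such fit were Rgs4, Rps6ka5, Klhl25 and Pdp1. Lhfpl2, a tetraspan membrane protein gene, was the 1 leading rise that lost its call without any of the 4 arrays (64.6 and 65.9 with BafA, against 33.0 and 27.7 in control, adjusted p = 0.031 from limma, and from 0.156 to 0.217 without 1 array).

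Most changes of 4 h had the same sign at 24 h, and a few had turned. The comparison at 24 h uses 4 other arrays, with their own controls, in the same fit. Control array 1 of 24 h shares its gain with control array 1 of 4 h. Each gene has 1 estimate of the spread for both times, so a call at 24 h is not independent of the call at 4 h. Among named genes with values at both times, 17.1% were higher and 15.8% were lower at 24 h. Of the 25 leading rises, 20 were also higher at 24 h, 2 were lower and 3 did not pass. Of the 25 leading falls, 17 were also lower, 0 were higher and 8 did not pass. Over the 136 rises that meet the same criteria, 97 were higher at 24 h, 10 were lower and 29 did not pass, and over the 67 such falls 41 were lower, 2 were higher and 24 did not pass. Cdt1 kept its size, with 314 and 242 with BafA, against 36.9 and 40.1 in control at 24 h, a log2 fold change of 2.84. Fbxo32 turned to 131 and 149 with BafA, against 365 and 207 in control at 24 h (log2 fold change -0.98, adjusted p = 0.0034 from limma), and Eva1a to 11.9 and 12 with BafA, against 51.8 and 34.3 in control (log2 fold change -1.82, adjusted p = 1.3e-05). Mertk no longer differed by more than its spread, with 68.0 and 81.3 with BafA, against 85.2 and 62.4 in control (log2 fold change 0.03). Egln3, lower at 4 h, was higher at 24 h, with 554 and 430 with BafA, against 71.2 and 68.5 in control (log2 fold change 2.80, adjusted p = 1.5e-07).

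**Figure D5:**
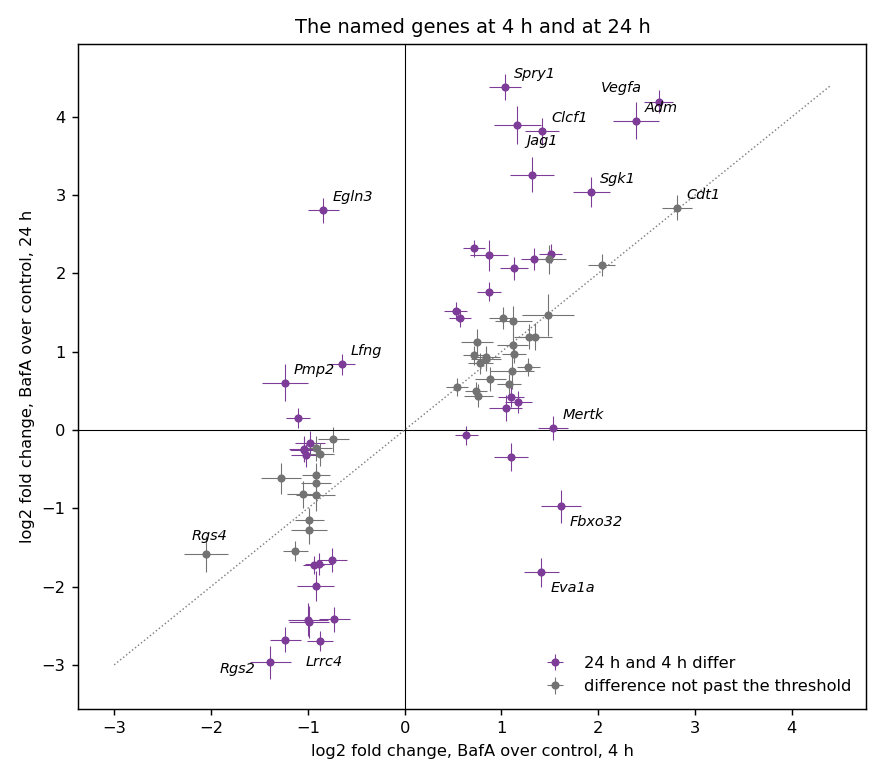
Log2 fold change of BafA over control at 4 h (horizontal) and at 24 h (vertical) for the 75 genes named by the rule, with bars of 1 SE. Purple genes are the 41 whose effect differs between the times in limma, grey genes are the other 34, and the dotted line marks equal effects. Eva1a and Fbxo32 lie below 0 at 24 h and Egln3 and Lfng above 0, each on the other side of 0 than at 4 h.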

How the data were processed

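Total RNA of qNSCs was measured on 8 arrays. The authors deposited scanner output with spot intensity on a linear scale, not normalized, and 1 table of signal values. Per the study's methods, the authors scaled the deposited signal by the median of each array. Set against the scanner output, each array's deposited values were a straight-line function of spot intensity above the mean of 2736 blank spots, with a median of 25. Processing software was not given in the sources used here.

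Arrays were grouped by their labels, and 0 columns were left without a sample. Log2 of the deposited signal was fitted in limma 3.58.1 (R 4.3.3, Python 3.11.15) with 1 coefficient per group over all 8 arrays, with eBayes, its prior variance following mean signal. The fit has 4 residual and about 7.51 prior degrees of freedom. A value missing at 24 h (402 of 20875 probes) lowers these. Benjamini-Hochberg adjustment covered all probes tested. With 2 arrays a side, the smallest 2-sided p that an exact permutation test allows is 0.333, so none was run for single genes. The test was tried on simulated data.

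The platform annotation names 16631 probes and leaves 6842 unnamed, and 3947 symbols were updated through RefSeq synonyms. Named genes are the 25 largest rises and 25 largest falls among called genes whose arrays do not overlap and whose higher group mean is at least 25, and up to 4 called members of each list, 75 in all. List members that did not pass were added as examples. Of 197 genes with several probes, 7 had some called and some not, and 0 had probes called in opposite directions. The members, lists and rule were chosen with earlier results of these data known. Alternatives were pseudocount, background, normalization, a filter on dim probes, arrays in the fit, trend, scan setting, replicate block, leaving out each array, and the methods' t-test.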

Additional observations from a re-analysis of the deposited data

Results flagged for a closer look

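The effect of BafA at 24 h differed from that at 4 h in 41 of the 75 named genes, by limma's test of the difference between the 2 effects (Benjamini-Hochberg adjusted p below 0.05). Among all named genes with values at both times, 18% passed that test. The 75 genes were chosen by their calls at 4 h, and the same 4 h values and spread enter this test. The choice alone can raise the share that passes and favour moves towards the control at 24 h. The 41 of 75 and the 18% are therefore not on equal terms. Differences are log2 fold changes at 24 h minus those at 4 h, and each rests on 2 arrays per group.

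Of the genes higher at 4 h, 15 had a larger rise at 24 h. The difference was 3.35 for Spry1, 2.73 for Jag1, 2.39 for Clcf1, 1.94 for Elovl6, 1.61 for Tfrc, 1.57 for Vegfa, 1.56 for Adm, 1.36 for Ccnd2, 1.11 for Sgk1, 1.0 for Fgfr1, 0.94 for Hbegf, 0.90 for Olig2, 0.86 for Ddit3, 0.84 for Ciart and 0.74 for Fasn. Of the genes lower at 4 h, 10 had a larger fall at 24 h. The difference was -1.82 for Lrrc4, -1.69 for Gpam, -1.58 for Rgs2, -1.47 for Sncaip, -1.45 for 2810459M11Rik, -1.43 for Ggta1, -1.07 for Foxj1, -0.91 for Sesn1, -0.83 for Zfp36l1 and -0.79 for Pdp1.

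In 4 genes the effect was called at both times with opposite signs. The difference was -3.23 for Eva1a, -2.59 for Fbxo32, 3.64 for Egln3 and 1.49 for Lfng. The other 12 genes had moved towards the control by 24 h or past it. Of these, Mertk (-1.51), Tead4 (-1.44), Tifa (-0.82), Lif (-0.76), Per1 (-0.71) and P2ry2 (-0.68) were higher at 4 h, and Pmp2 (1.84), Klhl25 (1.25), Nhp2 (0.81), Ddit4l (0.80), Tmem67 (0.78) and Tcim (0.69) were lower at 4 h.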

How the results depend on the processing

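Counts of probes, higher and lower, were 223 and 166. They became 94 and 43 without the trend in eBayes, 192 and 99 with scanner gain as a block, 134 and 51 within the 6 arrays that share a gain, and 12 and 17 by the methods' t-test after Benjamini-Hochberg (1247 and 1095 at its unadjusted p below 0.05). With the local background of each spot subtracted first, limma called 0 probes (902 at an unadjusted p below 0.05), and the median SE of the log2 fold changes was 0.437, beside 0.153 in the deposited values. When each array was left out in turn, counts ran from 70 to 333 higher and from 20 to 306 lower. Leaving out control array 2 of 4 h gave the lowest counts, and control array 2 of 24 h the highest. Named genes, 181 and 104, became 77 and 29, 154 and 67, 113 and 32, 8 and 13 (922 and 817 at an unadjusted p below 0.05), and 0 under those settings in the same order, and ran from 59 to 272 higher and from 10 to 198 lower with an array left out. The counts past 2-fold, 78 and 64, were 33 and 4 from scanner signals with an offset of 50, and 13 were lower with the filter on dim genes. With 1 array of 4 h left out they ran from 81 to 150 higher and from 91 to 108 lower.

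Of the 75 named genes, 70 passed with the offset, 71 with a pseudocount of 10, 71 under quantile normalization, 64 in the 4 arrays of 4 h, 61 with gain as a block, 42 within the 6 arrays of equal gain, 35 without the trend, and from 29 to 75 with 1 array left out. After local background subtraction none of the named genes with a value passed, and Hbegf, Mnt and BC002059 had no value there. The sign changed in 9: Elovl6 (-0.212), Plekho1 (-0.239), Kdr (-0.57), P2ry2 (-0.559), Flcn (-0.119), Rora (-0.594), Foxj1 (0.733), Pdk4 (0.345) and Egln3 (0.459). No other alternative turned a sign. Counts of limma's calls, though not the counts past 2-fold, stayed within 1.5 times under the pseudocount, the offset, quantile normalization and the 4 arrays of 4 h alone. It is not stated whether same-numbered arrays are paired. Their deviations correlated at 0.077 at 4 h and 0.111 at 24 h over all probes, and at 0.033 and 0.176 over brighter probes. These values cannot decide it, since each group gives 1 difference and control array 1 of either time had another gain. With the replicate block, 217 probes were higher and 170 were lower, and 67 of the 75 named genes passed. Signal over background is lowest for dim genes. Of 6301 genes with both group means below 25, outside the sterol and immediate-early lists, 36 were called lower (0.571%) and 18 were called higher (0.286%).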

Other observations

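Of the probes without a gene name, the largest called rise at a group mean of 25 or more was that of probe M400005412, with 396.5 and 415.7 with BafA, against 72.3 and 57.7 in control at 4 h (log2 fold change 2.65). The largest called fall was that of probe M400011370, with 226.4 and 204.1 with BafA, against 995.1 and 757.5 in control (log2 fold change -2.01). Both probes were chosen after their values were seen.

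Some probes had a value in 1 group only. There were 121 probes with a value on both BafA arrays and on no control array of 4 h, of at most 3.4, and 74 with a value on both control arrays and on no BafA array, of at most 5.9. All of these lie near the blank spots, and no fold change was computed for them.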
